A study of Mus musculus with 18 samples.

Results

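The genes that make, carry and break down dopamine were followed through 18 arrays of mouse brain RNA. They were the 8 genes Th, Ddc, Gch1, Slc6a3, Slc18a2, Aldh1a1, Maoa and Maob, taken by their role, and their probes were found by gene symbol in the annotation of the array platform. The array carried 14 probes for them among 44505 tested probes, which name 17274 genes. Ddc had 3 probes, Slc18a2, Gch1, Maoa and Maob had 2 each, and Th, Slc6a3 and Aldh1a1 had 1 each. All 14 probes were used. On GRCm38.p6, RefSeq places Th at chr7:142892779-142899995, Ddc at chr11:11814101-11898144, Gch1 at chr14:47153895-47189413, Slc6a3 at chr13:73536128-73578672 and Slc18a2 at chr19:59260878-59296012. Aldh1a1 lies at chr19:20492583-20643463, and the neighbours Maoa and Maob lie at chrX:16619698-16687812 and chrX:16709281-16817366. Where in each transcript a probe binds was not analysed here.

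All mice were C57BL/6J males aged 10.5 weeks. The control mice had not been defeated, while the mice classed as susceptible or as unsusceptible had gone through social defeat, in which a mouse is exposed to an aggressor, and the pools of a condition had comparable avoidance scores. Each array held a pool of 4 animals, from either the ventral tegmental area (VTA) or the nucleus accumbens (NAc), and each of the 6 combinations of structure and behaviour had 3 pools. A pool is thus 1 datapoint, p-values measure the spread between pools and not between animals, and nothing in the labels says whether NAc and VTA pools came from the same mice. Values are log2 of the normalized scanner intensity of a probe, so a difference of 1 is a doubling. They rank samples for 1 probe and do not compare 1 probe with another.

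Dopamine is made from tyrosine in midbrain neurons. Tyrosine hydroxylase, the product of Th, makes L-DOPA in the rate-limiting step with tetrahydrobiopterin as cofactor, and Gch1 codes for GTP cyclohydrolase 1, the first enzyme of the synthesis of that cofactor. The decarboxylase coded by Ddc turns L-DOPA into dopamine, the vesicular monoamine transporter coded by Slc18a2 (VMAT2) loads it into vesicles, and the plasma membrane transporter coded by Slc6a3 (DAT) takes it back up. The monoamine oxidases coded by Maoa and Maob oxidize it to an aldehyde, which the aldehyde dehydrogenase coded by Aldh1a1 can clear. The cell bodies of these neurons lie in the VTA and neighbouring nuclei, and the NAc receives their axons, so their messenger RNA is found mainly in the midbrain.

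Because 6 of the 8 genes differed together between the structures and among VTA pools, the sequence around their transcription starts is shown for 4 of them. Each line gives 120 bases before to 30 bases after a start site annotated by RefSeq on GRCm38.p6, written 5′ to 3′ on the gene's own strand. Capitals mark matches to a motif searched for on both strands. The sites are Th at chr7:142899966-142900115 on the minus strand, Slc18a2 at chr19:59260758-59260907 on the plus strand, an upstream start of Ddc at chr11:11898115-11898264 on the minus strand, and Slc6a3 at chr13:73536627-73536776 on the plus strand.
Th: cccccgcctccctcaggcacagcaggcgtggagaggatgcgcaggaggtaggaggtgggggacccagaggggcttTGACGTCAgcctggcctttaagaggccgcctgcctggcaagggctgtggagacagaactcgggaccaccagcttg
Slc18a2: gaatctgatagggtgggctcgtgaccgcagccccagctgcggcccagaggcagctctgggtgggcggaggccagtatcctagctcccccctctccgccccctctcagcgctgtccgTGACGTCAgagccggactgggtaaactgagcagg
Ddc: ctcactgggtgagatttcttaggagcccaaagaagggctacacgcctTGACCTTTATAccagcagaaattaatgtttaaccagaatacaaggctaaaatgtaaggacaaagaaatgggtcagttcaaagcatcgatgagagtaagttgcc
Slc6a3: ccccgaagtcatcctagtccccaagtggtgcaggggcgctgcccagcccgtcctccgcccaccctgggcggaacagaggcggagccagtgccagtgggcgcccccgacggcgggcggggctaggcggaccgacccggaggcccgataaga

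The search covered windows of 250 bases before to 50 bases after the start. For 7 of the 8 genes RefSeq gave 9 such windows. The cAMP response element TGACGTCA stood in the windows of Th and Slc18a2, with its first base at -45 and -4 from the start site. Of 32851 promoter windows of the same length, 1.79% held it. The Ddc stretch held AAAGGTCA on the opposite strand, the element bound by the dopamine neuron factor Nr4a2, which occurs in 1.51% of windows. There it overlaps a TATAAA on the same strand, a word present in 13.6% of windows and also in the window of Gch1. The window of the other Ddc start, not printed here, held none of the motifs. TAATCC, a homeodomain word bound by Pitx3, and the Foxa core TGTTTAC were in none of the 9 windows, against 7.06% and 3.65% of all windows. A match is a description of letters and says nothing of binding in these samples.

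Arrays of the same structure correlated at 0.985 or more, and no pair was identical. The first principal component separated the structures and held 64.3% of the variance. NAc unsusceptible pool 3 was the brightest array before normalization (median intensity 253.1, where the lowest array median was 148.3), and the array weight was lowest for NAc control pool 3 (0.587). On the same component, VTA unsusceptible pool 3 was at 26.9, where the other 8 VTA pools lay between 36.7 and 42.3. This last array touches nearly every result on the dopamine genes, so results are given with it, and without it where that moved them.

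The structure labels were checked against marker genes, in a comparison in which 28.1% of all probes passed. Medium spiny neuron markers were lower in the VTA in 6 of 6 measured members, with NAc levels of their mean between 13.40 and 13.88 and VTA levels between 9.42 and 9.71. Dopamine neuron markers other than the 8 genes were higher in the VTA in 6 of 7. The exception was Drd2, the D2 dopamine receptor that striatal neurons express too (-1.24 ± 0.13 log2 units, SE). Serotonin neuron markers were higher in 3 of 3, astrocyte markers in 6 of 8 with 2 lower, and oligodendrocyte markers in 5 of 5. Markers of noradrenergic neurons passed in 0 of 3, and Dbh, which makes noradrenaline from dopamine, lay between 6.97 and 7.44 in all 18 pools, around the mean of the median probe (7.40).

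The first comparison set the VTA against the NAc. In the VTA, 11 of the 14 probes were higher and none lower, and they belonged to 7 genes, while neither Maoa probe passed. Across the array, 28.1% of probes passed in either direction (limma, Benjamini-Hochberg adjusted p under 0.05). Median differences were 3.23 log2 units over the 14 probes and -0.00135 over all probes. Without VTA unsusceptible pool 3 the count was 12. By brightest probe, and counting from the gene that was most higher in the VTA, Slc6a3 ranked 1 of 17274 genes, Slc18a2 ranked 2, Th 4, Aldh1a1 6, Ddc 11, Gch1 22, Maob 1234 and Maoa 7369. These ranks hold for intensities without background subtraction, which understate the difference of genes whose NAc signal is near background, so the order among the first genes is not settled.

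**Figure D1:**
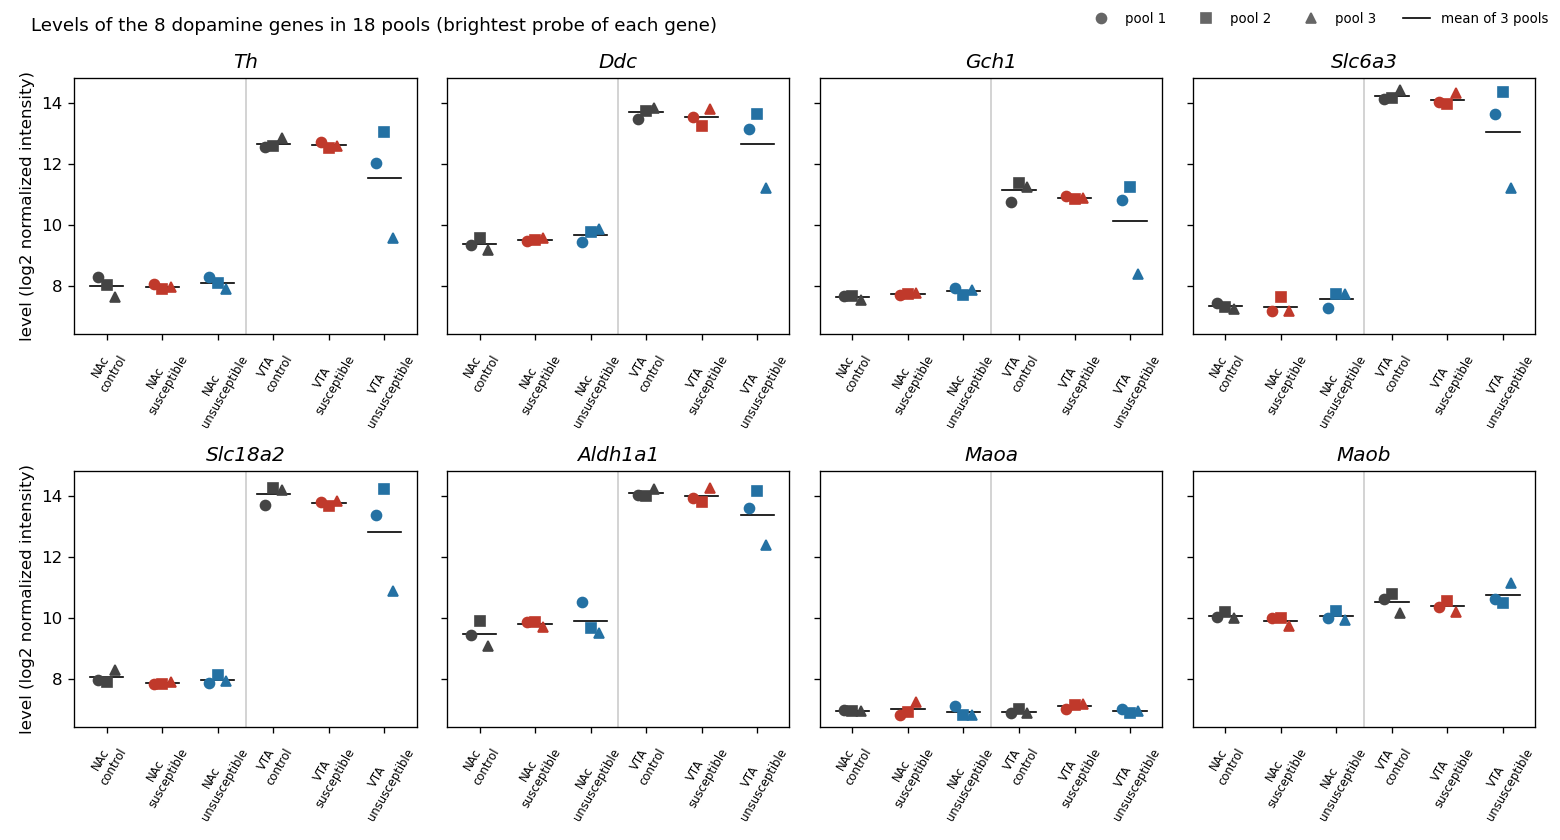
Level of each of the 8 genes (vertical axis, log2 normalized intensity of the brightest probe) in the 3 pools of each of the 6 groups; symbols mark pools 1, 2 and 3 and lines the group means. Except for Maoa and Maob, all VTA pools lie above all NAc pools. VTA unsusceptible pool 3, the blue triangle, lies below the other 8 VTA pools, for Th at 9.59 against 12.04 or more. For Gch1 it lies at 8.38, close to the highest NAc pool at 7.92.

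Th, the gene of the rate-limiting enzyme, lay at 12.56, 12.60 and 12.85 in the VTA control pools, at 12.74, 12.53 and 12.61 in the susceptible pools, and at 12.04, 13.05 and 9.59 in the unsusceptible pools. Its 9 NAc pools ran from 7.65 to 8.29 with a median of 8.02. Every VTA pool was above every NAc pool, but the unsusceptible group held both the highest and the lowest of the VTA values. The difference between structures was 4.27 ± 0.25 log2 units (SE, 9 against 9 pools), or 19.3-fold (limma, adjusted p 6.93e-13), and 4.60 ± 0.11 without VTA unsusceptible pool 3.

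Ddc, which follows Th in the pathway, was read by a pair of bright probes and 1 dim one. Probe 102850113 lay at 13.50, 13.75 and 13.84 in VTA control pools, at 13.56, 13.26 and 13.81 in susceptible pools, and at 13.16, 13.66 and 11.20 in unsusceptible pools. In the NAc it ran from 9.19 to 9.86 with a median of 9.50. The groups of the 2 structures did not overlap, and the NAc level was well above the median probe. Its difference was 3.78 ± 0.19 (13.7-fold, limma, adjusted p 3.3e-14), and that of probe 670408 was 3.82 ± 0.20. The dim probe 106980041, designed on a separate cDNA, reached only 8.15 in its highest pool and differed by 0.68 ± 0.10 (limma, adjusted p 4.16e-06).

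Gch1, the gene for the entry enzyme of cofactor synthesis, lay by probe 670364 at 10.77, 11.38 and 11.26 in VTA control pools, at 10.95, 10.86 and 10.88 in susceptible pools, and at 10.83, 11.23 and 8.38 in unsusceptible pools. Its NAc pools ran from 7.54 to 7.92 with a median of 7.69. All VTA pools again lay above all NAc pools, though VTA unsusceptible pool 3 lay close to the highest NAc pool. The difference was 3.00 ± 0.22 (8.0-fold, limma, adjusted p 3.96e-11), and 2.34 ± 0.18 for probe 6550358.

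Slc6a3, coding for the dopamine transporter of the plasma membrane, had the largest difference of all named genes that were higher in the VTA, without background subtraction. It lay at 14.13, 14.17 and 14.44 in VTA control pools, at 14.03, 13.99 and 14.34 in susceptible pools, and at 13.64, 14.36 and 11.20 in unsusceptible pools. Its 9 NAc pools ran from 7.16 to 7.74 with a median of 7.31, at the level of the median probe. The difference was 6.40 ± 0.24 (84.3-fold, limma, adjusted p 7.48e-17) and 6.71 ± 0.09 without VTA unsusceptible pool 3. With a background value subtracted from every array it was 8.16. The NAc signal lay near the background of the array, so the fold depends on how that background is treated.

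Slc18a2, the vesicular monoamine transporter gene, is used by dopamine, serotonin and noradrenaline neurons alike. By probe 6420541 it lay at 13.70, 14.28 and 14.20 in VTA control pools, at 13.80, 13.69 and 13.84 in susceptible pools, and at 13.37, 14.23 and 10.89 in unsusceptible pools. NAc pools ran from 7.82 to 8.30 with a median of 7.90. No NAc pool reached any VTA pool, and the difference was 5.60 ± 0.25 (48.6-fold, limma, adjusted p 2.18e-15). The dimmer probe 104560411 gave 3.45 ± 0.20 (10.9-fold), so the fold differed between the probes of this gene while the direction did not.

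Aldh1a1, the aldehyde dehydrogenase gene that also makes retinoic acid, lay at 14.04, 14.01 and 14.25 in VTA control pools, at 13.93, 13.82 and 14.27 in susceptible pools, and at 13.62, 14.19 and 12.38 in unsusceptible pools. NAc pools ran from 9.09 to 10.52 with a median of 9.70, the widest NAc range among the 14 probes. The structures did not overlap, and the difference was 4.10 ± 0.17 (17.2-fold, limma, adjusted p 3.7e-16).

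The monoamine oxidase genes did not follow the other 6. Maob by probe 2970520 lay at 10.62, 10.77 and 10.17 in VTA control pools, at 10.38, 10.57 and 10.19 in susceptible pools, and at 10.62, 10.48 and 11.15 in unsusceptible pools. NAc pools ran from 9.75 to 10.22 with a median of 10.001. The lowest VTA values fell inside the NAc range. VTA unsusceptible pool 3, the lowest VTA pool for the other 6 genes, was the highest by this probe. The VTA was higher by 0.54 ± 0.09 (1.45-fold, limma, adjusted p 2.25e-05), and by 0.47 ± 0.08 without that pool. By the dim probe 3060056 the same pool was instead the lowest VTA pool, at 7.22. That probe differed by 0.11 ± 0.06 (limma, adjusted p 0.168) with all pools and by 0.15 ± 0.05 (adjusted p 0.0259) without VTA unsusceptible pool 3. Maoa lay between 6.80 and 7.25 over 18 pools by probe 4610324 and between 6.50 and 7.12 by probe 1410039. Both probes were dimmer than the median probe, so whether they detect the transcript at all is not known from these data, and their differences between structures were 0.04 ± 0.06 (adjusted p 0.744) and -0.10 ± 0.06 (adjusted p 0.294).

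**Figure D2:**
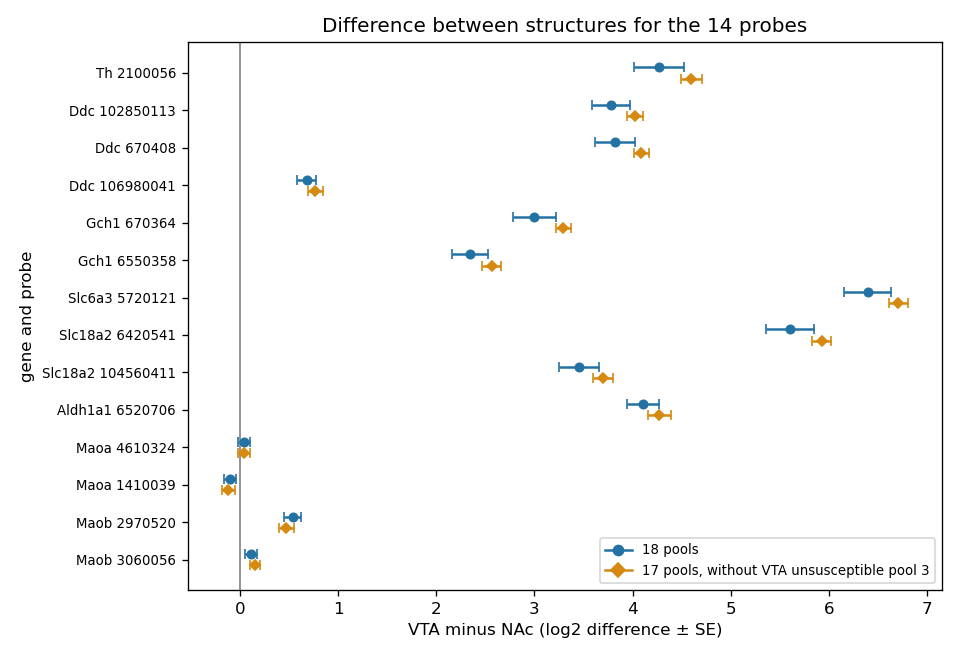
VTA minus NAc difference (horizontal axis, log2 units ± SE of the limma fit) for each of the 14 probes, with all 18 pools (circles) and without VTA unsusceptible pool 3 (diamonds). Slc6a3 stands farthest right at 6.40, the Maoa probes sit at 0.04 and -0.10, and the diamonds of the 6 dopamine neuron genes lie to the right of their circles.

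Other genes of the pathway were followed by lists, each gene by its brightest probe. In this comparison 28.1% of all probes passed. Fitted alone, 12123 of the 22252 probes brighter than the median probe passed. Of 8 measured genes of biopterin and cofactor supply, 5 were higher in the VTA and 1 lower, with a median difference of 0.56. Pcbd1, which codes for the dehydratase that regenerates the cofactor, was higher by 2.08 ± 0.06, and Qdpr, coding for dihydropteridine reductase, by 1.05 ± 0.06. Gchfr, whose product regulates GTP cyclohydrolase 1, was higher by 0.72 ± 0.13, Pcbd2 by 0.63 ± 0.05, and Spr, coding for sepiapterin reductase, by 0.50 ± 0.07. Pdxp, a pyridoxal phosphatase gene, was lower at -0.27 ± 0.06, and Pts, the middle enzyme of biopterin synthesis, stood at 0.01 ± 0.05.

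Among 12 other monoamine enzymes, 5 were higher and none lower, with a median difference of 0.13. That share is below the share of bright probes that passed, so the count does not set this list apart. Tph2, the neuronal tryptophan hydroxylase that starts serotonin synthesis, was higher by 3.87 ± 0.44 and reached 13.26 in its highest VTA pool. The aldehyde-handling genes Aldh3a2 (0.31 ± 0.05), Aldh1a2 (0.17 ± 0.06) and Akr1a1 (0.15 ± 0.05) passed at small sizes, as did Hdc, the histidine decarboxylase gene (0.26 ± 0.08). All but Tph2 lost their call in at least 1 alternative. Among 11 other transporters and vesicle partners, 7 were higher and none lower, with a median of 0.22. Sncg (gamma-synuclein) was higher by 3.68 ± 0.15, the serotonin transporter gene Slc6a4 by 2.09 ± 0.28, the vesicular orphan transporter gene Slc10a4 by 1.99 ± 0.25, the plasma membrane monoamine transporter gene Slc29a4 by 1.70 ± 0.10 and Syngr3, a synaptic vesicle protein gene, by 0.44 ± 0.05. Gpr37, a receptor gene, was higher by 0.22 ± 0.05. With Tph2 and Slc6a4 this high, transcripts of serotonin neurons moved with the structures beside those of dopamine neurons, and the part of serotonin neurons in the levels of the shared genes Ddc, Gch1 and Slc18a2 was not tested.

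VTA unsusceptible pool 3 was then set beside the other 8 VTA pools, on the linear intensity scale. Its Th intensity was 769.4, where the other pools lay between 4202.9 and 8508.3 and the highest NAc pool at 313.5. That was 12% of the mean of the others. Slc6a3 stood at 12.9% and Slc18a2 at 12.2%, with 19.2% by its dimmer probe. Gch1 stood at 15.9% and 24.4%, and Ddc at 19.2%, 17% and, by its dim probe, 57.0%. Aldh1a1 kept a larger share, 31.9%. Maoa was at 95.7% and 103% and Maob at 158% and 81.7%. The 9 bright probes of the 6 dopamine neuron genes were thus each lower there than in any other VTA pool and higher than in any NAc pool. The share of all probes with that pattern is not given here, so the count does not set these genes apart.

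**Figure D3:**
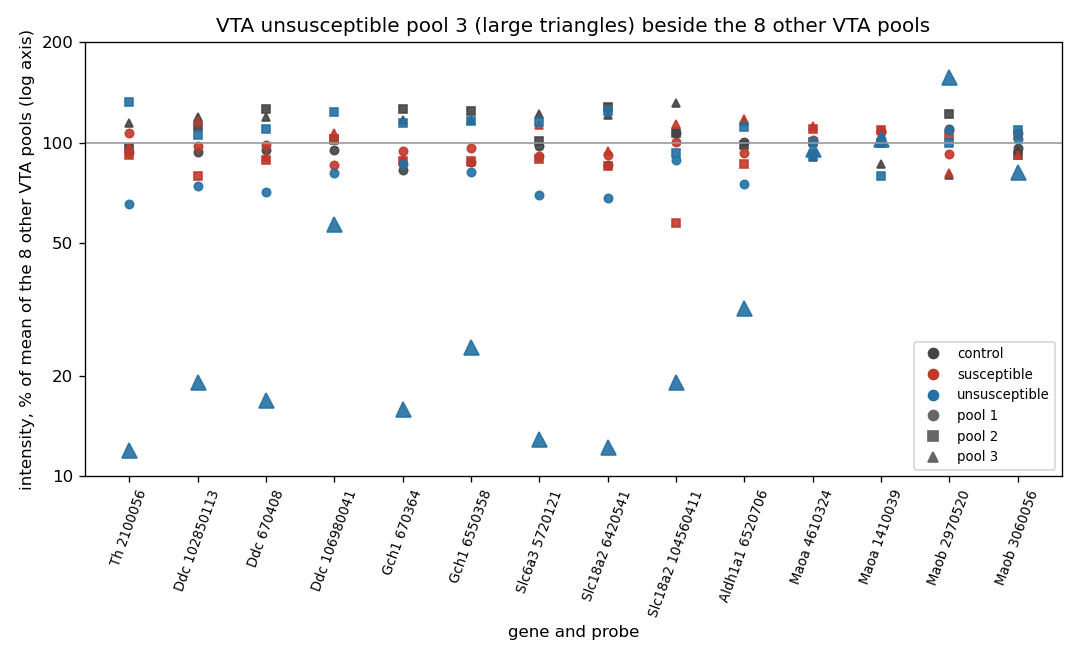
Intensity of each probe in each VTA pool as a percentage of the mean of the 8 pools other than unsusceptible pool 3 (vertical log axis); colours mark behaviour groups, symbols pool numbers, and large triangles unsusceptible pool 3. The triangles of Th, Gch1, Slc6a3, Slc18a2 and the bright Ddc probes lie between 12% and 24.4%, that of Aldh1a1 at 31.9%, and that of the bright Maob probe at 158%.

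Some other marker genes moved with the dopamine genes in that pool. The mean level of dopamine neuron markers was 8.81 there, 9.93 to 10.60 in the other VTA pools and 8.51 to 8.68 in the NAc. En1, a midbrain transcription factor gene, was at 8.57 where the other VTA pools held 11.18 or more. The serotonin markers averaged 7.36 against 9.07 to 11.69 in the other VTA pools, and Tph2 at 6.89 lay inside its NAc range of 6.79 to 7.32. Oligodendrocyte markers averaged 12.89 against 13.25 to 13.66, and astrocyte markers 11.39 against 11.53 to 11.74. The astrocyte markers did not move together. Gfap (9.72), Aqp4 (11.44) and S100b (11.01) were lower there than in any other VTA pool. Slc1a3 (13.81), Gja1 (14.65) and Slc1a2 (11.09) were higher there than in any other VTA pool, and Aldh1l1 and Slc4a4 lay inside the range of those pools. Medium spiny markers averaged 9.52, inside the range of the other VTA pools, although Drd1, the D1 dopamine receptor gene, was at 8.26 where those pools held 7.48 to 8.17 and NAc pools 12.17 to 12.92. The part of these cell types in the values of the dopamine genes was not tested, and in such bulk tissue fewer cells of a type and less RNA per cell cannot be told apart.

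The next question was whether the genes differed between behaviour groups of the VTA. In unsusceptible against control pools, 0 of 14 probes passed, with 9 at an unadjusted p under 0.05. Of all 44505 probes 0.00674% passed and 3058 had an unadjusted p under 0.05. The median over the 14 probes was -0.90. Th differed by -1.11 ± 0.44 (limma, adjusted p 0.609), Slc6a3 by -1.18 ± 0.41 (0.547), Slc18a2 by -1.23 ± 0.43 (0.547) and Ddc by -1.02 ± 0.33 (0.504). Gch1 stood at -0.99 ± 0.38 (0.604), Aldh1a1 at -0.70 ± 0.29 (0.631), Maob at 0.23 ± 0.15 (0.827) and Maoa at 0.02 ± 0.10 (0.985). Oligodendrocyte markers did pass in this comparison, 2 of 5 and both lower, Mobp at -0.74 ± 0.12 and Mog at -0.65 ± 0.10 (limma, adjusted p 0.0278 for each). Without unsusceptible pool 3 they stood at -0.58 and -0.56 and 0 of 5 passed. Their part in the dopamine gene values was not tested.

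These sizes rested on unsusceptible pool 3. Without it Th differed by -0.12 ± 0.20, Slc6a3 by -0.25 ± 0.18, Slc18a2 by -0.26 ± 0.18, Ddc by -0.29 ± 0.16, Gch1 by -0.10 ± 0.14, Aldh1a1 by -0.19 ± 0.22 and Maob by 0.03 ± 0.14, each with an adjusted p of 0.993 or more in limma. Of the 14 probes 1 then had an unadjusted p under 0.05, beside 2237 of all probes. It was Ddc probe 670408 (-0.34 ± 0.15, limma, p 0.0286, adjusted 0.984). Without unsusceptible pool 2 instead, which held the highest Th value, 7 of the 14 probes passed, all lower, beside 268 of all probes. Th then stood at -1.855 (adjusted p 0.0105) and Slc18a2 at -1.931 (adjusted p 0.00843), with 2 pools left in the group. For Th the SD of the unsusceptible group was 1.78, larger than its difference from the controls, where the control and susceptible groups had 0.16 and 0.11.

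In susceptible against control pools of the VTA, of the 14 probes 0 passed and 0 reached an unadjusted p under 0.05. Of all probes 0.00225% passed and 1540 had an unadjusted p under 0.05. Th differed by -0.04 with a 95% interval of -0.95 to 0.87, Slc6a3 by -0.13 (-0.98 to 0.73), Slc18a2 by -0.28 (-1.17 to 0.61), Ddc by -0.16 (-0.85 to 0.53), Gch1 by -0.24 (-1.03 to 0.55) and Aldh1a1 by -0.09 (-0.69 to 0.50). For the oxidases it was 0.19 (-0.02 to 0.40) for Maoa and -0.14 (-0.46 to 0.17) for Maob. The intervals are wide because all groups share 1 estimate of the spread, to which unsusceptible pool 3 adds. Without that pool the SE of the Th difference fell from 0.44 to 0.18, and the adjusted p of each of the 14 probes remained 1.00. Then 2 of them had an unadjusted p under 0.05, Slc18a2 probe 104560411 (-0.40 ± 0.17, p 0.0237) and Ddc probe 670408 (-0.28 ± 0.13, p 0.0432), beside 1587 of all probes. Differences inside these intervals are compatible with the data, and the intervals are not limits of detection. The comparisons of susceptible and of unsusceptible pools share their control pools. Markers of other cells stood apart in susceptible pools without passing the test. All 3 serotonin neuron markers were below control (median -1.295), with mean levels of 9.07 to 10.22 where control pools held 10.31 to 11.69. All 5 oligodendrocyte markers were below control too (median -0.231), with mean levels of 13.31 to 13.40 against 13.51 to 13.66. This was not particular to susceptible pools. In unsusceptible VTA pools all markers of both lists were below control as well, with medians of -1.352 and -0.408. Without unsusceptible pool 3 these medians were -0.477 and -0.257. Their part in the values of the dopamine genes was not tested.

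**Figure D4:**
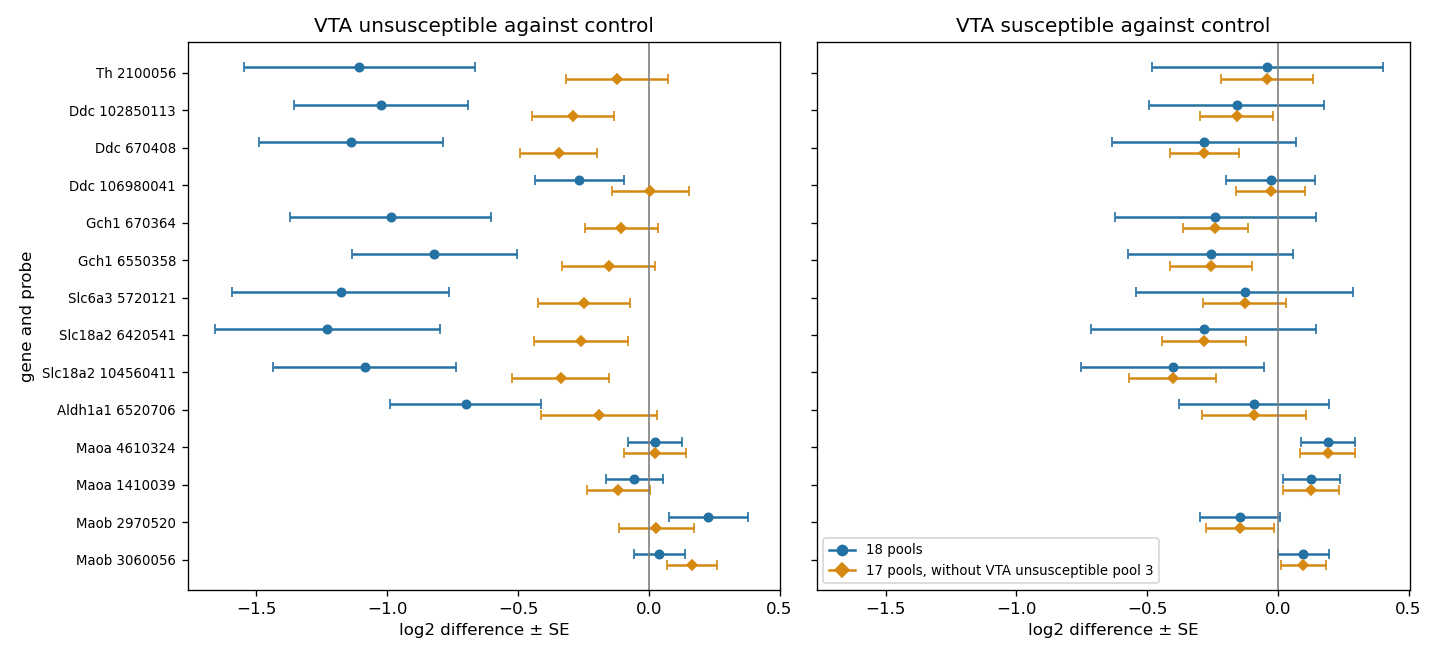
Differences of unsusceptible (left) and susceptible (right) from control VTA pools (horizontal axis, log2 units ± SE of the limma fit) for the 14 probes, with all 18 pools (circles) and without VTA unsusceptible pool 3 (diamonds). On the left the circle of Th moves from -1.11 to a diamond at -0.12, and on the right circles and diamonds coincide.

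Susceptible against unsusceptible VTA pools gave 0 of 14 probes past the threshold, 7 at an unadjusted p under 0.05, against 0% of all probes (0 passed and 2469 had an unadjusted p under 0.05). Ddc was at 0.87 ± 0.33, Slc6a3 at 1.05 ± 0.41, Aldh1a1 at 0.61 ± 0.29, Gch1 at 0.75 ± 0.38 and Maoa at 0.17 ± 0.10, with adjusted p of 0.892 or more. Th was at 1.07 ± 0.44 with all pools and at 0.08 ± 0.20 without unsusceptible pool 3, and Maob at -0.37 ± 0.15 and -0.17 ± 0.14. Slc18a2 changed sign, from 0.95 ± 0.43 to -0.02 ± 0.18. Leaving out unsusceptible pool 2 instead gave 5 of the 14 probes past the threshold, all higher in susceptible pools, beside 139 of all probes.

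In the NAc the levels were low and close. Susceptible against control pools had 0 of 14 probes past the threshold and 1 at an unadjusted p under 0.05. Of all 44505 probes 0.0652% passed and 3681 had an unadjusted p under 0.05. The 1 of the 14 was the dim Maoa probe 1410039 (-0.22 ± 0.11, adjusted p 0.601). The bright genes ranged from -0.20 ± 0.43 for Slc18a2 to 0.32 ± 0.29 for Aldh1a1. For unsusceptible against control pools the count was 0 of 14, with 0 at an unadjusted p under 0.05. Of all probes 0.00225% passed and 5097 had an unadjusted p under 0.05. Without VTA unsusceptible pool 3, which enters the shared spread, 2 of the 14 had an unadjusted p under 0.05, beside 5297 of all probes. They were Ddc probe 102850113 (0.32 ± 0.14, limma, p 0.0326, adjusted 0.359) and Aldh1a1 (p 0.0443, adjusted 0.403). With the NAc fitted alone there were 3, beside 4654 of all probes, and none of the 14 passed in either fit. Aldh1a1 had the largest difference, 0.42 ± 0.29 (limma, adjusted p 0.615), with control pools at 9.48 ± 0.41 and unsusceptible ones at 9.91 ± 0.53 (SD, n = 3 each), 1 pool at 10.52 and the other two inside the control range. Susceptible against unsusceptible pools also had 0 of 14, with 0 at an unadjusted p under 0.05 and differences from -0.27 to 0.19. Of all probes 0.00225% passed and 1964 had an unadjusted p under 0.05.

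Blood transcripts were higher than control in the defeated pools of both structures, with larger median differences in susceptible pools. In the NAc 3 of 5 blood markers rose in susceptible pools against controls, beside 0.0652% of all probes. Their mean level was 10.34 to 10.64 in control and 11.41 to 11.82 in susceptible pools. In the VTA the mean was 10.58 to 11.26 in control and 11.60 to 12.13 in susceptible pools, again without overlap, with 5 of 5 markers above control at a median difference of 1.15, though 0 of 5 passed the threshold there and 1 without VTA unsusceptible pool 3. In unsusceptible pools 5 of 5 markers were above control in each structure and 0 passed. The median difference was 0.51 in the NAc and 0.47 in the VTA. Mean levels there were 10.79 to 11.21 in the NAc, above all control pools, and 10.91 to 11.49 in the VTA, overlapping control. The part of blood in the small differences of the dopamine genes was not tested.

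Whether behaviour acted differently in the structures was tested as an interaction. For susceptible against control, 0 of 14 probes passed and 1 had an unadjusted p under 0.05 (Maoa probe 1410039, 0.35 ± 0.15, adjusted p 0.756), with the others between -0.41 for Aldh1a1 and 0.16 for Maob probe 3060056, against 0% of all probes, of which 2829 had an unadjusted p under 0.05. For unsusceptible against control, 0 of 14 passed and 6 had an unadjusted p under 0.05, against 0% of all probes, of which 4704 had an unadjusted p under 0.05. The smallest p belonged to Ddc probe 102850113, at -1.34 ± 0.47 (p 0.00894, adjusted 0.326), with probe 670408 at -1.23 ± 0.50 (adjusted 0.391). Slc6a3 stood at -1.43 ± 0.59 (adjusted 0.396), Aldh1a1 at -1.12 ± 0.41 (0.345), Th at -1.22 ± 0.62 (0.504), Gch1 at -1.19 ± 0.54 (0.444), Slc18a2 at -1.14 ± 0.61 (0.524), Maob at 0.24 ± 0.21 (0.728) and Maoa at 0.08 ± 0.15 (0.890). Without VTA unsusceptible pool 3 the sizes were smaller, and 0 of 14 passed in limma, but 3 probes still had an unadjusted p under 0.05, beside 4053 of all probes. These were Ddc probe 102850113 at -0.61 ± 0.21 (p 0.0083, adjusted 0.438), Ddc probe 670408 at -0.43 ± 0.20 (p 0.0382) and Slc6a3 at -0.50 ± 0.24 (p 0.0471), while Th stood at -0.23 ± 0.26 and Aldh1a1 at -0.61 ± 0.30.

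The pathway lists gave no call in any behaviour comparison. By smallest p, the members to name in the VTA were Sncg (-0.85 ± 0.25, adjusted p 0.468), Tph2 (-2.07 ± 0.76, 0.569) and Qdpr (-0.26 ± 0.10, 0.619) for unsusceptible against control, which without unsusceptible pool 3 were -0.37, -0.48 and -0.12. For susceptible against control they were Aldh1a2 (-0.30 ± 0.11), Slc6a4 (-1.30 ± 0.49) and Gchfr (-0.45 ± 0.23), each with an adjusted p of 1.00. In the NAc they were Pcbd1 (-0.27 ± 0.11, 0.474), Gpr37 (0.17 ± 0.09, 0.672) and Aldh1a2 (0.18 ± 0.11, 0.716) for susceptible, and Qdpr (-0.31 ± 0.10, 0.227), Aldh3a2 (-0.22 ± 0.09, 0.321) and Syngr3 (0.07 ± 0.09, 0.809) for unsusceptible pools against control.

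How the genes varied together was read over the 9 VTA pools, as the correlation of Th with each of the other 7 by brightest probe. Of 7, 6 passed after adjustment over the 7 (exact permutation of pairings, two-sided). The test was run on these 7 genes alone, so the share of all genes that would pass is not known. The count thus does not set these genes apart. Pearson's r with Th was 0.991 for Slc6a3 (exact permutation p 0.000987, adjusted 0.00345, Spearman's rho 0.883, p 0.00308), 0.985 for Slc18a2 (p 0.000832, adjusted 0.00345, rho 0.817, p 0.0108) and 0.978 for Ddc (p 0.00309, adjusted 0.0054, rho 0.817, p 0.0108). For Aldh1a1 r was 0.9746 (exact p 0.00164, adjusted 0.00382, rho 0.783, p 0.0172) and for Gch1 0.973 (exact p 0.00618, adjusted 0.00865, rho 0.767, p 0.0214). Maob ran the other way at -0.790 (exact p 0.0163, adjusted 0.0191, rho -0.733, p 0.0311), but at -0.535 by the mean of its 2 probes (exact permutation, adjusted p 0.222), and Maoa stood at 0.0627 (exact p 0.857, rho -0.317, p 0.410).

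Much of this rested on 1 pool. Leaving out the 2 pools farthest from the median of Th, unsusceptible pools 1 and 3, brought r to 0.613 for Slc6a3, 0.6252 for Slc18a2, 0.404 for Ddc, 0.510 for Aldh1a1, 0.546 for Gch1 and -0.342 for Maob. Over the 8 pools without unsusceptible pool 3, 3 of 7 passed (exact permutation, n = 8, no other genes tested). These were Slc6a3 at 0.855 (adjusted p 0.0343), Slc18a2 at 0.807 (0.0343) and Aldh1a1 at 0.783 (0.0468), with rho of 0.833 (exact p 0.0154), 0.738 (0.0458) and 0.69 (0.0694), none of which passed after adjustment (0.107 for the first pair and 0.116). Ddc was at 0.708 (adjusted 0.0777), Gch1 at 0.575 (0.193), Maob at -0.414 (0.321) and Maoa at -0.416 (0.321). Over those 8 pools, leaving out the 2 farthest from the median, unsusceptible pools 1 and 2, gave 0.552, 0.495 and 0.473 for the 3 that had passed, so these too leaned on the outer pools. Among the 6 dopamine neuron genes themselves, the 15 pairwise r ran from 0.944 to 0.993 over 9 pools and from 0.441 to 0.976 over 8.

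**Figure D5:**
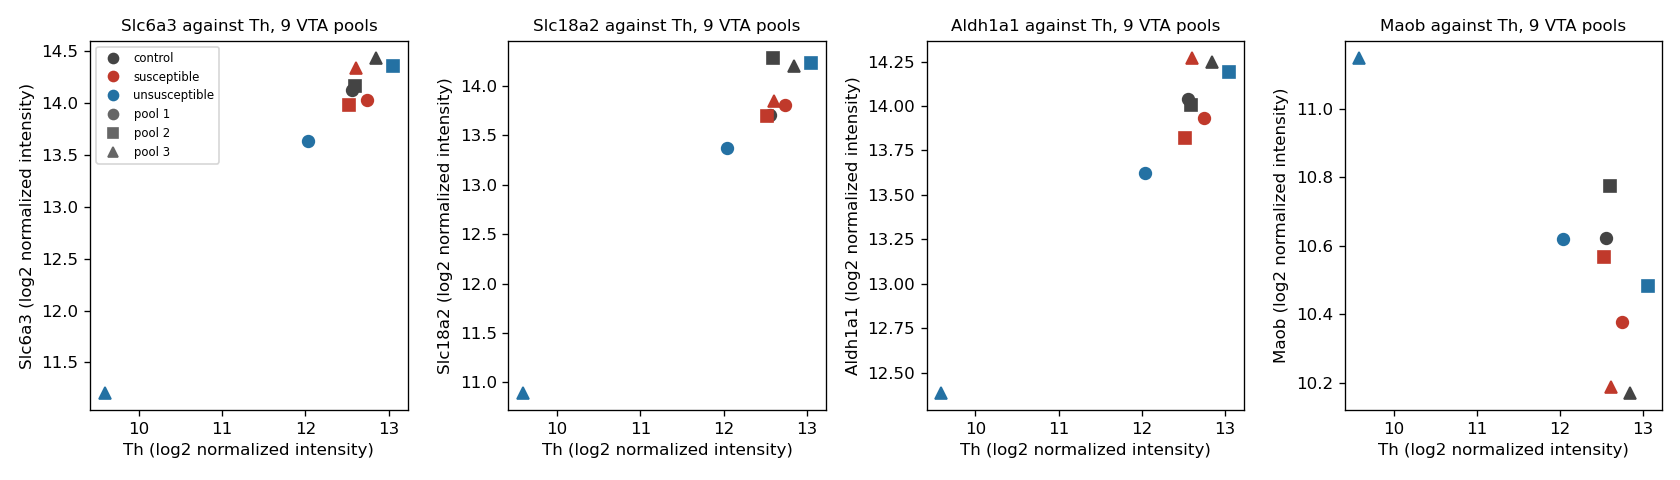
Slc6a3, Slc18a2, Aldh1a1 and Maob (vertical axes) against Th (horizontal axes), all in log2 normalized intensity, over the 9 VTA pools; colours mark behaviour groups and symbols pool numbers. Unsusceptible pool 3 lies alone at a Th level of 9.59, low in the first 3 panels and at the top for the bright Maob probe (11.15). The other 8 pools lie between 12.04 and 13.05.

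A search of 11597 genes brighter than the median probe gave those most like each of the 8 over the 9 VTA pools, as a description. Most like Th were the nicotinic receptor subunit genes Chrna6 (r 0.995, and 0.965 without unsusceptible pool 3) and Chrnb3 (0.992, 0.915), the transcription factor gene En1 (0.994, 0.906), Slc6a3 (0.991, 0.855) and Slc10a4 (0.989, 0.832). Slc6a3 was most like En1 (0.999, 0.988), Slc18a2 most like En2 (0.997, 0.958), Ddc most like Slc10a4 (0.994, 0.932), Aldh1a1 most like Dlk1 (0.996, 0.966) and Gch1 most like Tal1 (0.993, 0.881). Each of these partners was also higher in the VTA than in the NAc, by 1.99 to 6.40 log2 units. Maob was most like Nkd1 (0.982, 0.973) and Maoa most like Dap (0.930, 0.928), with differences of 0.52 and 0.30 between the structures. The 9 pools share a tissue, and likeness here says nothing of shared control.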

How the data were processed

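RNA from 18 pools was hybridised to one-colour arrays. Per the labels' protocols it was linearly amplified and labelled with biotin. The authors deposited scanner intensity per probe (61.9 to 73427.2, linear, no detection p or background column) and a table of intensity for the series that tracked it after normalization. The submitters' processing notes name affy, with no version or role. That deposited table differed from the normalization used here by a median of 2.12e-05 log2 units and had 3949 empty cells, so it served as an alternative.

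Scanner intensities of 44505 probes (42 of 44547 empty on every array were left out) were quantile normalized on the linear scale, taken to log2 and fitted with limma 3.58.1 in R 4.3.3, with 1 mean per group, 12 residual degrees of freedom and an intensity trend. Because all groups were fitted together they share 1 estimate of the spread. Tests were two-sided, adjusted over all probes by Benjamini-Hochberg at 0.05. No probe filter was applied. Without background subtraction, differences of dim probes are understated. The number of arrays limits the precision. Probe names came from the platform annotation (28482 probes with 1 symbol, 11 with several, 16012 with none), and all 14 probes matched RefSeq by gene identifier. A gene of a list was represented by its brightest probe. Correlations used exact permutation (scipy 1.17.1). The code was tested on simulated data.

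The rule for named genes covered all 14 probes in each comparison (in behaviour comparisons the text gives the brightest probe of each gene, or the range, and dimmer probes where a value turns on them), list genes past the threshold (up to 6 per list and direction) or else the one of smallest p, the 5 genes most like Th and the 1 most like each other gene. The 8 genes, the lists and the motifs were chosen with earlier results of these data known. Replicate numbers were checked as pairs: of 18 same-numbered pairs within a structure, 3 had deviations correlated over 0.1 (range -0.0448 to 0.197), so the numbers were not used as pairs. The alternatives were median scaling, the deposited table, background subtraction (the percentile 5 of each array, with a floor of 16), bright probes alone, array weights, no intensity trend, a replicate block, each structure fitted alone, leaving out the 3 arrays that stand apart, leaving out each pool, and, for the correlations, removing group means or averaging the probes of a gene.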

Additional observations from a re-analysis of the deposited data

Results flagged for a closer look

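VTA unsusceptible pool 3 was the lowest of the 9 VTA pools for 9 probes by more than the critical share of the range for 9 values (Dixon's test). The 9 pools span the 3 behaviour groups, since a group of 3 pools is too small for this check. Its levels were 9.59 for Th, 11.2 and 10.9 for the bright Ddc probes, 11.2 for Slc6a3, 10.89 and 8.49 for Slc18a2, 12.38 for Aldh1a1, and 8.38 and 8.35 for Gch1 (log2 intensity). Of 28 sets examined, 14 probes in each structure, 9 stood out, all in this 1 pool, and chance gives about 5% of sets. The check was run on the 14 probes alone, and the share of all probes that stand out in this pool is not known. The array itself stood apart, at 26.9 on the first principal component against 36.7 to 42.3 in the other VTA pools. The count is thus not shown to be particular to these genes. The gap was 0.707 of the range for Th, 0.753 for Slc6a3 and 0.797 for Gch1 probe 670364, and was widest for the last. The dim Ddc probe was lowest there too (0.453) without reaching the critical gap. The 9 probes are read from the same array and are not independent of one another.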

How the results depend on the processing

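Of the results on the structures, 804 of the recomputed log2 differences kept direction and call, 21 lost their call, 2 gained one and 1 changed sign. Under median scaling Pdxp (adjusted p 0.305), Aldh1a2 (0.0671), Aldh3a2 (0.0781), Akr1a1 (0.21) and Park7 (0.154) were no longer called. Aldh1a2 also lost its call with background subtracted (0.0818) and with the replicate block (0.0525), and Hdc without the 3 arrays that stand apart (0.055). With 11 to 12 of the 14 probes called when 1 pool was left out, that count moved by 1 probe at most. Leaving out 1 pool gave 0 to 7 probes for VTA unsusceptible against control and 0 to 5 for VTA susceptible against unsusceptible, and the highest counts came without unsusceptible pool 2, when 268 and 139 of all probes were called. Between 3 and 6 genes correlated with Th, 3 without unsusceptible pool 3.

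All values that changed sign were uncalled, and the cause was not tested. Maoa stood at -0.01277 between structures with background subtracted. In the NAc, median scaling turned Th (0.03536) and Maob (0.034) in susceptible, and Slc18a2 (0.1507) and Maob (0.5196) in unsusceptible pools against control. Background subtraction turned Th (0.01933) in susceptible and Maoa (0.1104) in unsusceptible pools. Without the 3 arrays that stand apart Slc18a2 (0.05682) and Maob (0.004545) turned in NAc unsusceptible pools, and Slc18a2 (-0.02311) and Gch1 (-0.1348) in VTA susceptible against unsusceptible pools. Leaving out 1 pool gave ranges across 0. For NAc susceptible pools these were -0.1788 to 0.1383 for Th, -0.1735 to 0.05841 for Slc6a3 and -0.08715 to 0.1292 for Maoa. For NAc unsusceptible pools they were -0.05999 to 0.2571 for Th, -0.1699 to 0.03655 for Slc18a2 and -0.09802 to 0.041 for Maob. For VTA susceptible pools they were -0.09951 to 0.04968 for Th and -0.2221 to 0.003165 for Aldh1a1, and for VTA unsusceptible pools -0.01329 to 0.06668 for Maoa. Susceptible against unsusceptible VTA pools ran from -0.02311 to 1.649 for Slc18a2 and from -0.1348 to 1.291 for Gch1.

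Counts over all probes moved more. NAc unsusceptible against control gave 1 probe, 1229 under median scaling, and NAc susceptible against control 29, 18 among bright probes, 5 without the 3 arrays and 0 with background subtracted (limma, 3898 at an unadjusted p under 0.05). VTA susceptible against control gave 1, 11 under median scaling and 13 with array weights. With the replicate block, VTA against NAc gave 12561 probes and 11 of the 14, NAc susceptible 50, NAc unsusceptible 137 and VTA unsusceptible 4 against control, with 0 of the 14 in each behaviour comparison. The replicate numbers were not used as pairs, and the check on them cannot exclude that they pair the samples. Precision is limited by 3 pools a group, and for Maoa by signals below the median probe.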
